A study of Mus musculus with 8 samples.

Results

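Heat shock proteins and chaperones were described across pericytes and SMCs of mouse skeletal muscle. The 10 genes were taken by symbol from the 37979 genes listed, namely the 6 inducible genes Hspa1a, Hspa1b, Hspb1, Dnajb1, Hsph1 and Hsp90aa1 and the 4 constitutive genes Hspa8, Hspd1, Hspe1 and Hspa5. All 10 were measured above 0 in each of the 8 libraries. The study asked which genes tell pericytes from SMCs. Both groups came from hindlimb muscle of adult Ai14+/-;SM22α-Cre+ mice of both sexes, where the SM22α promoter drives Cre and recombined cells carry the red protein tdTomato from then on, so that SMCs are marked. Live cells outside the CD31 and CD45 gate and positive for PDGFRβ were sorted as pericytes where they lacked tdTomato and as SMCs where they carried it, with 4 libraries of each. Each sample combined cells from several sorts, and muscle of both groups had been minced and digested with collagenase and then trypsin before the sort. Because SMCs are set apart only by past SM22α-Cre activity, a cell that escaped recombination would be sorted as a pericyte.

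Heat shock proteins are molecular chaperones that bind unfolded proteins and keep them from aggregating. The inducible genes are switched on by heat shock factor 1 when unfolded proteins build up. The constitutive genes serve daily folding in the cytosol, the mitochondria and the endoplasmic reticulum (ER), which does not exclude that some are induced as well. HSP70 proteins fold clients in an ATP cycle that DNAJ proteins start and nucleotide exchange factors end, and they hand some clients on to HSP90. Small heat shock proteins hold unfolded clients without ATP, and in muscle they associate with the contractile cytoskeleton.

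The marker genes of the sorted types went against the labels in part, so the group names stand here as labelled. Summed FPKM (fragments scaled by transcript length and by the reads mapped in a library) of 7 T cell markers ran from 1533 to 2420 in the pericyte libraries and from 19.5 to 34.5 in the SMC libraries, and that of 6 B cell markers from 858 to 2048 and from 21.5 to 39.6. The 7 pericyte markers summed to 27.0 to 86.4 in pericytes and 65.9 to 286.4 in SMCs, and the 6 smooth muscle markers to 590 to 1891 and 1774 to 5696. Endothelial markers (77.0 to 133.5 against 314.7 to 988.9) and fibroblast markers (798 to 1642 against 3257 to 4486) summed higher in every SMC library, although the fibroblast gene Dcn was listed at 0 in all 4 SMC libraries and not in pericytes. Macrophage markers (905 to 1894 and 1067 to 1704), muscle fibre markers (26.5 to 31.9 and 22.2 to 35.1) and erythroid markers (125 to 3621 and 128 to 818) overlapped between the groups. The ubiquitin gene Ubb, needed by all cells, had a listed FPKM of 0 in each of the 8 libraries, so a 0 can be a failed estimate. The FPKM of all genes summed to between 656405 and 782014 in 7 libraries and to 1190435 in pericytes 2, whose values also leaned most towards short transcripts. The read number behind a value is unknown.

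The 10 genes lie on 7 chromosomes of the mouse genome (NCBI Build 37). Hspa1a and Hspa1b are neighbours on the minus strand of chromosome 17, from 35106144 to 35109069 and from 35093381 to 35096183. Each has 1 exon, and their coding sequences were identical at 1918 of 1926 aligned bases (99.6%), so fragments from one could be assigned to the other. Hspa1a also overlaps Gm20481 on the opposite strand. Hspb1 lies on the plus strand of chromosome 5, from 136363789 to 136365433, with 3 exons. Hspd1 (chromosome 1, 55134679 to 55145087, minus strand, 12 exons) and Hspe1 (55144976 to 55148151, plus strand, 4 exons) start head to head and overlap. Their coding transcripts differ in length, with 2423 bases for Hspd1 and 774 for Hspe1, the shortest of the members. Hspa5 lies on the plus strand of chromosome 2 from 34627490 to 34632051 with 9 exons, and Hspa8 on the plus strand of chromosome 9 from 40609067 to 40613283 with 9 exons and 3 small nucleolar RNA genes inside it. Hsph1 (chromosome 5, 150416862 to 150438951, minus strand) has 19 exons, Hsp90aa1 (chromosome 12, 111928815 to 111940938, minus strand) has 11, and Dnajb1 (chromosome 8, 86132074 to 86135801, plus strand) has 3. Hspa8 has 7 further copies of at least 150 bases at 95% identity or more in this genome, Hsp90aa1 and Hspd1 have 3 each, and Hspb1 and Hspe1 have 1 each.

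The promoters are shown because they hold the elements by which heat shock genes and ER stress genes are known to be switched on. The 250 bases before the start were read from RefSeq (GRCm38.p6) for 8 of the 10 members, with none for Hspa8 and Hsp90aa1. Both strands were searched for the short heat shock element (GAANNTTC or TTCNNGAA), for 3 units in a row (GAANNTTC followed by NNGAA, or TTCNNGAA followed by NNTTC, which contain the short element), for TATAAA and for the ER stress element, CCAAT and CCACG with 9 bases between them. Capitals mark the matches, and each sequence is on the strand of its gene. Hspa1b is from chr17:34959239-34959488 on the minus strand, Hspb1 from chr5:135887669-135887918 on the plus strand, Hspe1 from chr1:55087898-55088147 on the plus strand and Hspa5 from chr2:34771840-34772089 on the plus strand.
Hspa1b: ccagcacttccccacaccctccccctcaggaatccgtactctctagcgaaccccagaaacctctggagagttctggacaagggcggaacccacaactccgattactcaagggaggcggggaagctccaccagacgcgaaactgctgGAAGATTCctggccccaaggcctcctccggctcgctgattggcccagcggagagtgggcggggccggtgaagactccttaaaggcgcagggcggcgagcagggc
Hspb1: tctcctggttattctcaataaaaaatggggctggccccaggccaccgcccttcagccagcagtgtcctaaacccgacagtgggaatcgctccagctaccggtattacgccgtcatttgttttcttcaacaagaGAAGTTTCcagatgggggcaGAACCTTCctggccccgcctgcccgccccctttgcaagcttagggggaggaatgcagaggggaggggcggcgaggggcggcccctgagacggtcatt
Hspe1: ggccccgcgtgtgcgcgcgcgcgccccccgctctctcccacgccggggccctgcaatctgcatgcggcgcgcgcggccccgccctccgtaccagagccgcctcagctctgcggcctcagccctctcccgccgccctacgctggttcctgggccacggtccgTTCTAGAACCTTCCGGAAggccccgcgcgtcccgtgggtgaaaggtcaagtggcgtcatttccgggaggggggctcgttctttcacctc
Hspa5: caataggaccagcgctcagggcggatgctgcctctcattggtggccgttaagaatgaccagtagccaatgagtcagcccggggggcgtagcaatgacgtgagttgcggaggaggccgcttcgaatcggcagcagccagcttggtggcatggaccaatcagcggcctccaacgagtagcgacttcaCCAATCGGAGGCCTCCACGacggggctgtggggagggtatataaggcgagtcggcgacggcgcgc

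The short element was present in 6 of the 8 members and in 12.8% of 32851 promoters of the same length. In Hspa1b it lay 104 to 97 bases before the start. Hspa1a carried it at the same place, and its window differed from that of Hspa1b at 3 of 250 bases, T44C, C47T and G249T, with the Hspa1b base first and positions counted from the 5′ end of the window. Hspb1 carried 2 short elements, 117 to 110 and 97 to 90 bases before the start. Hspe1 carried an unbroken run of 18 bases, 89 to 72 bases before its start, that holds the longer element, which was found in 0.466% of promoters. Hspd1 shares this run, since its window overlaps that of Hspe1 by 215 bases on the opposite strand. Hsph1 carried 1 short element, and Dnajb1 and Hspa5 carried none. The ER stress element was found in Hspa5 alone among the 8 members, 65 to 47 bases before the start, and in 0.113% of promoters. TATAAA was in 0 of the 8 members and in 12.4% of promoters. A match is a description of letters and does not show that a factor binds there.

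Of the 10 members, 1 passed q below 0.05 between the groups, against 21.8% of the 27414 genes tested and 39.8% of 13349 genes with at least 1 FPKM in at least 4 libraries. This was Hspb1, lower in pericytes, where 11.2% of genes tested were called in the direction of SMCs. It also passed the stricter rule of a log2 difference over 2, as did 2.66% of genes in that direction, 3.24% in the other and 5.89% in either. The other 9 members did not pass with limma and Benjamini-Hochberg adjustment over all genes tested, although Hspd1 and Hspe1 had unadjusted p-values of 0.0124 and 0.0197. With the test limited to the 13349 genes, both passed and made it 3 of 10 members, while 5987 of the 13349 genes passed. The groups did not overlap for 3 members (Hspb1, Hspd1 and Hspe1), against 24.6% of genes tested and 42.6% of genes above the 1 FPKM filter. Neither count stood above the share among expressed genes. The median difference in log2(FPKM + 1), pericytes minus SMCs, was 0.08 over the inducible members and 0.41 over the constitutive members, beside 0.02 over all genes tested and 0.47 over 11 genes that every cell uses. Leaving out 1 library at a time gave -0.08 to 0.15 over the inducible and 0.30 to 0.51 over the constitutive members. Removing trends on transcript length and GC content gave 0.33 and 0.31. Rescaling FPKM to a common sum in every library (TPM) turned the median of the inducible members to -0.16, lowered that of the constitutive members to 0.17 and moved that of genes above the 1 FPKM filter from 0.046 to -0.16, so small differences below are read against that shift. In bulk RNA, fewer cells of a type and less RNA per cell cannot be told apart, and p-values measure the spread between these libraries.

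**Figure D1:**
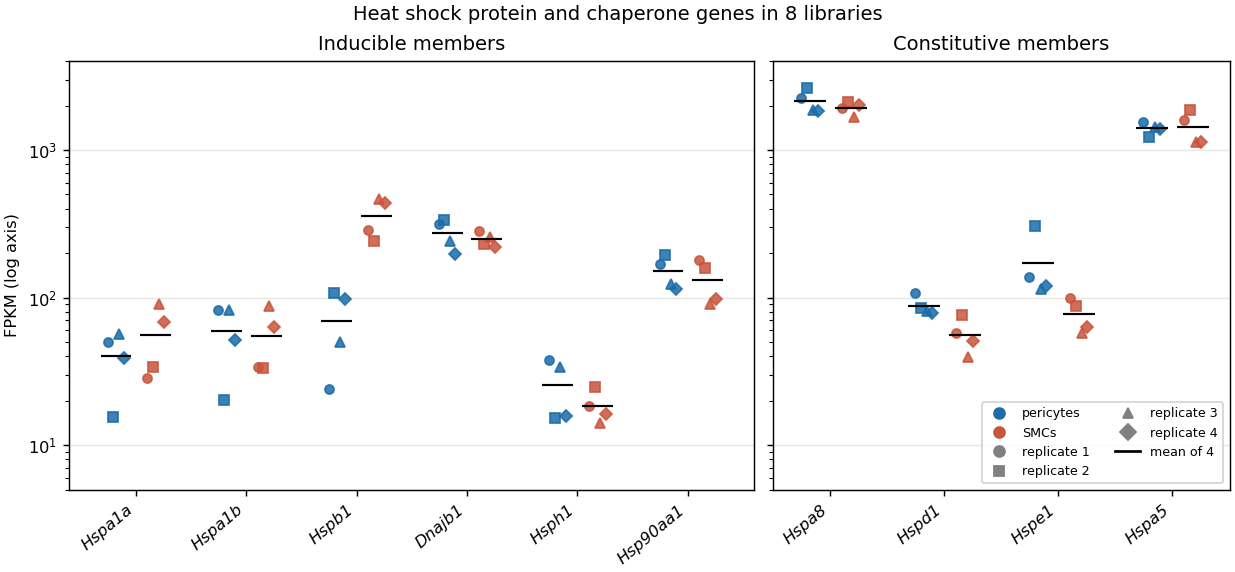
FPKM on a log axis of the 6 inducible and the 4 constitutive members in each library, with pericytes in blue, SMCs in red, a marker shape per replicate number and a line at the mean of 4. Hspb1 in SMCs, at 241.5 to 467.6, lies above its 4 values in pericytes, whereas Hspa8 and Hspa5 lie above all other members in every library.

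Hspb1, which encodes the small heat shock protein HSP27, differed most of the members. Its FPKM was 23.9, 108.1, 49.7 and 97.1 in pericytes 1 to 4 and 288.5, 241.5, 467.6 and 439.0 in SMCs 1 to 4. Every SMC library lay above every pericyte library, and pericytes 1 was lowest of all. The means were 69.7 ± 39.7 (SD, n = 4) and 359.1 ± 111.0 (SD, n = 4). On the log2(FPKM + 1) scale pericytes were lower by 5.72-fold, with a difference of -2.52 (SE 0.50, 95% interval -3.68 to -1.35, q = 0.0106 by limma). The two-sided exact permutation test gave p = 0.0286, the smallest that 4 against 4 libraries can give. The difference ran from -2.80 to -2.09 over 18 alternatives, all past q below 0.05. The sums of the fibroblast and endothelial markers moved with Hspb1 between the groups, that of the smooth muscle markers was 737, 1891, 590 and 1744 in pericytes 1 to 4 and 1774 to 5696 in SMCs, and those of the T and B cell markers moved the other way, and their part in it was not tested.

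Hspa1a and Hspa1b, which encode near-identical stress-inducible HSP70 proteins, did not pass the test. Hspa1a was at 50.1, 15.5, 56.4 and 39.2 FPKM in pericytes 1 to 4 and at 28.6, 34.1, 91.0 and 68.5 in SMCs 1 to 4. Hspa1b was at 82.5, 20.3, 82.0 and 51.3 in pericytes and at 34.0, 33.5, 87.3 and 63.2 in SMCs. Both genes were lowest in pericytes 2 and high in SMCs 3 and 4, and the groups overlapped throughout. The differences in log2(FPKM + 1) were -0.44 (SE 0.52, 95% interval -1.65 to 0.77, q = 0.636 by limma) for Hspa1a and 0.04 (SE 0.52, 95% interval -1.19 to 1.27, q = 0.970 by limma) for Hspa1b. Their summed FPKM, which depends less on how fragments were shared between the 2 copies, differed by -0.18 (SE 0.53, 95% interval -1.42 to 1.06, q = 0.856 by limma). Each of these intervals holds a 2-fold lower level in pericytes, and those of Hspa1b and of the sum hold a 2-fold higher one as well.

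Dnajb1, the HSP40 that starts the ATP cycle of HSP70, had the smallest spread between libraries among the inducible members. Its FPKM was 314.6, 333.2, 240.6 and 198.8 in pericytes and 284.4, 229.2, 258.1 and 221.0 in SMCs, and the groups overlapped. The difference in log2(FPKM + 1) was 0.11 (SE 0.18, 95% interval -0.32 to 0.53, q = 0.748 by limma). Hsph1, the HSP110 that exchanges nucleotide on HSP70, was at 38.0, 15.3, 33.8 and 15.7 in pericytes and at 18.5, 24.7, 14.1 and 16.2 in SMCs. Pericytes 1 and 3 were high and the other 2 pericyte libraries lay among the SMCs, with a difference of 0.38 (SE 0.34, 95% interval -0.43 to 1.18, q = 0.557 by limma). Hsp90aa1, the inducible cytosolic HSP90, was at 168.1, 195.4, 123.8 and 114.9 in pericytes and at 179.5, 158.7, 89.9 and 97.9 in SMCs. In both groups libraries 1 and 2 lay above 3 and 4, and the difference between the groups was 0.22 (SE 0.28, 95% interval -0.44 to 0.88, q = 0.668 by limma).

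Among the constitutive members, Hspd1 and Hspe1, the HSP60 and HSP10 subunits of the mitochondrial chaperonin, lay higher in every pericyte library than in any SMC library without passing the adjusted test. Hspd1 was at 107.5, 85.1, 81.2 and 79.1 FPKM in pericytes and at 57.5, 76.5, 39.5 and 50.8 in SMCs. SMCs 2 came closest to the pericytes. The difference in log2(FPKM + 1) was 0.67 (SE 0.20, 95% interval 0.19 to 1.15, q = 0.0552 by limma), and the two-sided exact permutation test gave p = 0.0286. Without SMCs 2 the difference was 0.83 with q = 0.0183 by limma. Under TPM it was 0.44 (q = 0.389) and after quantile normalization 0.62 (q = 0.125).

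Hspe1 was at 138.7, 307.7, 113.6 and 120.5 FPKM in pericytes and at 99.8, 87.3, 57.5 and 63.1 in SMCs. Pericytes 2 stood far above the rest. The difference in log2(FPKM + 1) was 1.04 (SE 0.35, 95% interval 0.22 to 1.86, q = 0.0780 by limma), and the two-sided exact permutation test gave p = 0.0286. It passed when the test was limited to the 13349 genes (q = 0.0316), after quantile normalization (0.98, q = 0.0268) and under TPM (0.81, q = 0.0495). Without pericytes 2 it was 0.72 with q = 0.0559 by limma. With trends on transcript length and GC content removed it was 0.33 with q = 0.162 by limma, whereas Hspd1, with its longer transcript, was then at 0.81 with q = 0.00582. The slope of the deviations on transcript length was -0.45 in pericytes 2 and between -0.08 and 0.24 in the other libraries. The T and B cell marker sums were also higher in pericytes, highest in pericytes 2, and their part in Hspd1 and Hspe1 was not tested.

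Hspa8 and Hspa5 were the most abundant members, with overlapping groups. Hspa8, the constitutive cytosolic HSP70 (HSC70), was at 2243, 2633, 1868 and 1823 FPKM in pericytes and at 1918, 2106, 1683 and 2024 in SMCs. The difference in log2(FPKM + 1) was 0.14 (SE 0.14, 95% interval -0.19 to 0.46, q = 0.582 by limma). Hspa5, the ER HSP70 known as BiP, was at 1558, 1217, 1427 and 1390 in pericytes and at 1596, 1877, 1129 and 1140 in SMCs. Its difference was -0.01 (SE 0.18, 95% interval -0.44 to 0.42, q = 0.984 by limma). Both intervals exclude a 2-fold difference on this scale, but for Hspa5 the difference was -0.25 (SE 0.29) under TPM and -0.44 (SE 0.33) after quantile normalization. Dnajb1, Hsp90aa1 and Hspa8 changed sign under TPM (-0.13, -0.02 and -0.10), Hspa8 was also at -0.31 after quantile normalization, and none passed there.

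**Figure D2:**
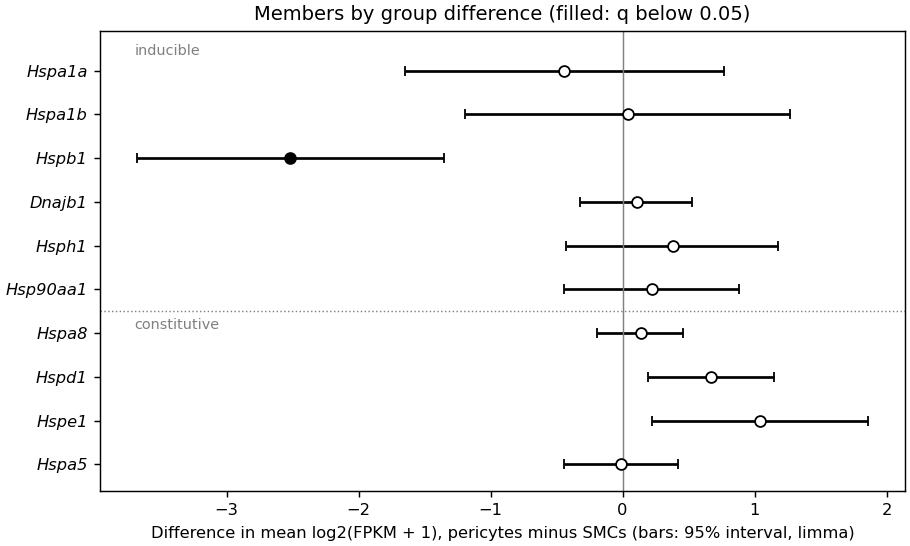
Difference in mean log2(FPKM + 1), pericytes minus SMCs, for each member with its 95% interval from limma, filled where q is below 0.05. Hspb1 at -2.52 is the filled point, Hspd1 and Hspe1 have intervals above 0 but did not pass the adjusted test, and the other 7 intervals hold 0.

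Per transcript length, the order of the members in FPKM was alike at both ends and differed in the middle. Hspa8 ranked first and Hspa5 second in both groups, with ranges that did not overlap in pericytes and that overlapped in SMCs. Hspb1 ranked 7 of 10 in pericytes, where its range overlapped those of Hspd1 and Hspa1b on either side. In SMCs it ranked 3, overlapping Dnajb1 below it. Hsph1 ranked last in both groups, apart from its neighbour Hspa1a in SMCs and overlapping it in pericytes. In pericytes Dnajb1, Hspe1 and Hsp90aa1 followed Hspa5 with overlapping neighbours, and Hsp90aa1 lay apart from Hspd1. Together the 10 members made up 0.414% to 0.742% of the FPKM sum of a library, with the lowest share in pericytes 2.

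The spread between libraries differed by member. The SD of log2(FPKM + 1) over the 4 pericyte libraries ran from 0.35 to 0.99 among the inducible members, with Hspb1, Hspa1b and Hspa1a at the top, and from 0.15 to 0.66 among the constitutive members, with Hspa5 at the bottom. In SMCs the ranges were 0.17 to 0.78 and 0.14 to 0.39.

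Libraries 1 and 2 differed from 3 and 4 for several members. Hsp90aa1, Hspd1 and Hspe1 were higher in 1 and 2 than in 3 and 4 in both groups, by 0.60 and 0.84 log2 units for Hsp90aa1, 0.25 and 0.56 for Hspd1 and 0.82 and 0.62 for Hspe1, pericytes first. In SMCs, Hspa1a, Hspa1b and Hspb1 lay the other way, with 1 and 2 below 3 and 4 (-1.31, -1.12 and -0.78). Such splits were common, since 28.0% of all genes tested had 1 and 2 above 3 and 4 in SMCs and 19.5% had them below, and among genes above the 1 FPKM filter the shares were 34.0% and 31.0%. In pericytes they were 25.8% and 14.8%, and 27.5% and 24.6%. The labels give the same batch for all 8 libraries, and whether same-numbered libraries share animals or sorts is not given in the sources used here.

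**Figure D3:**
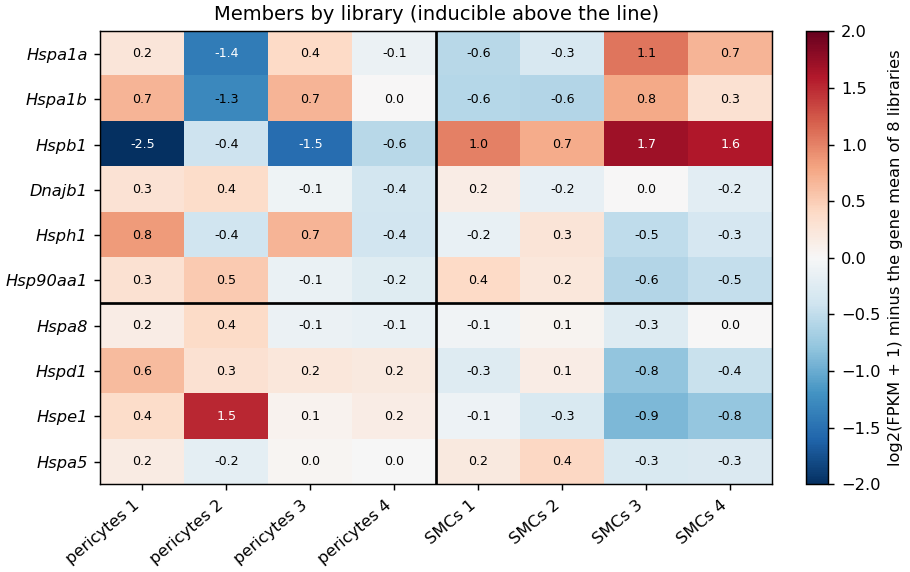
Each cell gives log2(FPKM + 1) of a member in a library minus that gene's mean over the 8 libraries, with red above and blue below the mean and the inducible members over the horizontal line. Hspa1a and Hspa1b share their pattern, Hspb1 is blue in all pericytes and red in all SMCs, and Hspe1 is highest in pericytes 2.

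The mean log2(FPKM + 1) of the 6 inducible members was 6.28, 5.88, 6.31 and 6.04 in pericytes 1 to 4 and 6.36, 6.34, 6.72 and 6.57 in SMCs 1 to 4. All SMC libraries lay above all pericyte libraries. Without Hspb1 the mean of the other 5 was 6.61, 5.70, 6.44 and 5.92 in pericytes and 5.99, 6.02, 6.29 and 6.13 in SMCs, so that the groups overlapped, and 4 of the 6 had the higher mean in pericytes. Of these, Hspa1b, Dnajb1 and Hsp90aa1 were lower in pericytes under TPM (-0.19, -0.13 and -0.02). Over the 8 libraries, which form 2 groups, the genes most like this mean among 13339 genes were Ocln, Akr1e1, Ccdc68, Dll1 and Prkcc, with Pearson correlations from 0.949 to 0.964. With group means removed they were Rabep2, Col1a1, Smpd3, 1500002O20Rik and Aebp1, from 0.964 to 0.984. Hspa1a and Hspa1b correlated with each other at 0.92 over the 8 libraries and at 0.98 with group means removed. Hspa1a and Hspe1 correlated at -0.82 and -0.94. These correlations describe 8 points that share library, depth and transcript length effects.

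At q below 0.05 by limma, 26 of 139 other chaperone genes and regulators lay higher in pericytes and 16 in SMCs, together 30.2% against 21.8% of genes tested and 39.8% of genes with at least 1 FPKM in at least 4 libraries. Under TPM fewer calls fell to pericytes in general, with 36.2% of calls higher in pericytes (2117 against 3734) in place of 48.8% (2917 against 3060). Among the 139 the balance turned, with 14 higher in pericytes and 22 in SMCs under TPM. Leaving out 1 library at a time gave 19 to 27 higher in pericytes and 6 to 22 in SMCs, with 6 in SMCs without pericytes 3 and 22 without pericytes 2. The sums of the T and B cell markers moved with the genes higher in pericytes and those of the fibroblast and endothelial markers with the genes higher in SMCs, and their part in these lists was not tested.

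Of 8 other small heat shock proteins, 3 were called higher in SMCs and 1 in pericytes at q below 0.05. Beside this, 11.2% of genes tested and 19.9% of genes above the 1 FPKM filter were called in the direction of SMCs. The median difference of the 8 was -1.32. Hspb8, which works with Bag3 on damaged muscle proteins, was at 3.58 to 5.45 FPKM (median 4.51) in pericytes and 15.8 to 46.9 (median 26.0) in SMCs, a difference of -2.35 (SE 0.31, q = 0.00183 by limma). Cryab, the αB-crystallin of muscle, was at 90.5 to 183.9 and 250.9 to 362.9, with a difference of -1.22 (q = 0.00726 by limma). Hspb2 was at -1.47 (q = 0.0476) and Cryaa, a lens crystallin at 0.28 to 5.38 FPKM, was higher in pericytes by 1.09 (q = 0.0361).

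Partners of HSP70 were called in both directions. Of 11 nucleotide exchange factors and HSP70 partners, 4 were called higher in SMCs and 1 in pericytes at q below 0.05. Together this was 45.5%, against 21.8% of genes tested and 39.8% of genes above the 1 FPKM filter. The median of the 11 was 0.03. Without pericytes 3, pericytes 4, SMCs 1, SMCs 2 or SMCs 3, each left out alone, 1 was called higher in SMCs and 1 in pericytes. Bag3, an exchange factor that guides clients to autophagy, was at 27.6 to 47.9 FPKM in pericytes and 77.2 to 201.6 in SMCs, a difference of -1.67 (SE 0.38, q = 0.0180 by limma). Bag2, Stub1 and Sil1 were lower in pericytes by -0.88, -0.73 and -0.66. Of 44 other DNAJ genes, 8 were called higher in pericytes and 2 in SMCs at q below 0.05, together 22.7%. Beside this, 10.6% of genes tested and 19.9% of genes above the 1 FPKM filter were called in the direction of pericytes. The median of the 44 was 0.13, and under TPM the counts were 5 and 4 and the median -0.06. Dnajc9 (1.78, q = 0.000770), Dnajc15 (1.74, q = 0.00899, and 1.39 without pericytes 2 or 0.77 with length and GC trends removed) and Dnajb13 (1.58, q = 0.000277, at most 3.18 FPKM) were higher in pericytes, and Dnajc10, an ER DNAJ, was lower by -1.37 (q = 0.0281).

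Of 10 other HSP70 and HSP110 genes, Hspa14, which acts at the ribosome, was higher in pericytes by 0.96 (q = 0.00232 by limma). Hspa12b, known from endothelium, was lower by -1.94 (q = 0.0227), and Hspa13 and Hspa2 were lower by -0.94 and -0.80. Of 3 other HSP90 genes, Hsp90ab1, the constitutive cytosolic partner of Hsp90aa1, was at 634.5 to 1051 FPKM in pericytes and 443.7 to 537.8 in SMCs, with a difference of 0.83 (SE 0.16, q = 0.0103 by limma) that did not pass under TPM (0.59, q = 0.280) or quantile normalization (0.58, q = 0.284). Of 16 HSP90 co-chaperones, 4 were called higher in pericytes and 2 in SMCs at q below 0.05. Together this was 37.5%, against 21.8% of genes tested and 39.8% of genes above the 1 FPKM filter. Stip1, which bridges HSP70 and HSP90, differed by 1.08 (q = 0.00279 by limma), Tomm34 by 1.07 (q = 0.00607), Chordc1 by 0.53 (q = 0.0328) and the myosin chaperone Unc45b by -2.73 (q = 0.0363). Under TPM 1 co-chaperone was called in each direction.

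The cytosolic chaperonin CCT folds actin and tubulin, and prefoldin hands clients to it. Of 14 CCT and prefoldin genes, pericytes had the higher level for 6 at q below 0.05 by limma and SMCs for 0 (9 and 0 at an unadjusted p below 0.05), with a median of 0.54 beside 0.47 over the genes that every cell uses, of which 4 of 11 were called higher in pericytes and 0 in SMCs (6 and 0 at an unadjusted p below 0.05). In the direction of pericytes, 10.6% of genes tested and 19.9% of genes above the 1 FPKM filter were called. Under TPM 2 and 0 CCT and prefoldin genes were called, with a median of 0.30. Cct5 was at 312.9 to 514.6 FPKM in pericytes and 144.8 to 226.3 in SMCs, a difference of 1.0 (SE 0.20, q = 0.0115 by limma), and Cct2, Cct4 and Cct7 differed by 0.92, 0.71 and 0.65. In the ER, where Hspa5 acts, 4 of 26 folding and unfolded protein response genes were called higher in pericytes and 2 in SMCs at q below 0.05. Together this was 23.1%, against 21.8% of genes tested and 39.8% of genes above the 1 FPKM filter. The median of the 26 was -0.04, and under TPM 3 and 4 were called. Serpinh1, the collagen chaperone HSP47, was at 29.4 to 59.1 and 297.4 to 435.1 FPKM, a difference of -2.85 (SE 0.24, q = 0.000239 by limma). Eif2ak3 (the stress sensor PERK), Syvn1 and Edem1 (both of ER-associated degradation) were higher in pericytes by 1.45, 1.42 and 1.52.

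In the mitochondria, where Hspd1 and Hspe1 act, 0 of 11 other folding and protease genes passed q below 0.05 by limma, and 0 were higher in pericytes and 1 in SMCs at an unadjusted p below 0.05. Hspa9, the mitochondrial HSP70, differed by 0.43 (q = 0.183) and the protease subunit Clpp by -0.73 (q = 0.193), and without pericytes 2 both passed (0.61, q = 0.0160 and -1.06, q = 0.00888 by limma). Both also passed with length and GC trends removed (0.61, q = 0.0335 and -0.86, q = 0.0349 by limma), and Clpp passed under TPM (-0.97, q = 0.0193). Of 7 heat shock factors and their binding proteins 0 passed (0 in pericytes and 2 in SMCs under TPM), and 1 was higher in pericytes and 2 in SMCs at an unadjusted p below 0.05 by limma. Hsf1 was at 27.9 to 33.3 FPKM in pericytes and 14.5 to 27.2 in SMCs, with groups apart and a difference of 0.62 (SE 0.21, q = 0.0811 by limma), and Hsbp1 differed by -0.72 (q = 0.0981), or by -0.97 (q = 0.00398) without pericytes 2, -0.96 (q = 0.00320) under TPM and -0.76 (q = 0.00744) after quantile normalization. Of 21 immediate early genes, which also answer to handling of cells, 8 were called higher in SMCs and 1 in pericytes at q below 0.05. Together this was 42.9%, against 21.8% of genes tested and 39.8% of genes above the 1 FPKM filter. In the direction of SMCs, 11.2% and 19.9% of genes were called. Without SMCs 3, and likewise without SMCs 4, 4 immediate early genes were called higher in SMCs. Fos, at 876 to 1263 and 1599 to 2337 FPKM, differed by -0.98 (q = 0.00430 by limma), Junb by 0.68 (q = 0.0494, but 0.44 with q = 0.220 under TPM and 0.25 with q = 0.574 after quantile normalization) and Dusp1 by -0.72 (q = 0.182, but -0.96 with q = 0.0448 under TPM and -1.04 with q = 0.0299 after quantile normalization). The summed FPKM of the 21 was 7521 to 8235 in pericytes and 8277 to 14320 in SMCs, and its part in the levels of the members was not tested.

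Of the 31 genes named from the other chaperone and immediate early lists with q below 0.05, 16 kept it without each library in turn. Bag2, Bag3, Cct2, Cct7, Chordc1, Cryaa, Dnajc10, Edem1, Hspa12b, Hspa2, Hspb2, Junb, Sil1, Stub1 and Unc45b lost it without at least 1 library. Under TPM it was lost by Hspa2, Hsp90ab1, Stip1, Chordc1, Cct4, Cct7, Edem1 and Junb. Leaving out 1 library at a time moved the counts called in SMCs to between 1 and 3 for the other HSP70 and HSP110 genes, 2 and 3 for the small heat shock proteins, 1 and 5 for the DNAJ genes (5 without pericytes 2), 0 and 2 for the HSP90 co-chaperones (0 without pericytes 3 or SMCs 2) and 1 and 3 for the ER genes. The counts called in pericytes stayed at 7 or 8 for the DNAJ genes, 3 or 4 for the co-chaperones and 4 to 6 for CCT and prefoldin, and were 2 to 4 for the ER genes.

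**Figure D4:**
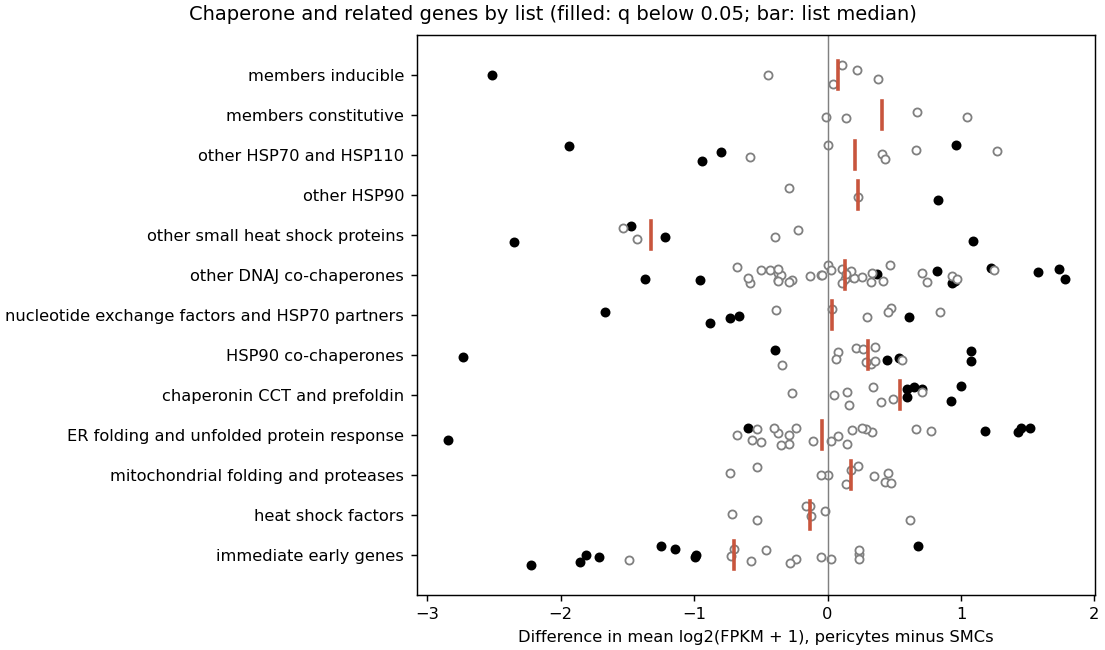
Each point is a gene of a list at its difference in mean log2(FPKM + 1), pericytes minus SMCs, filled where q is below 0.05, with a red bar at the median of the list and points spread vertically for sight only. The other small heat shock proteins have their median at -1.32 and the CCT and prefoldin genes at 0.54.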

How the data were processed

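RNA of 4 pericyte and 4 SMC libraries, made with an ultra-low-input kit, was sequenced. The authors assessed reads with FastQC, used Bowtie2 and TopHat with Ensembl gene models to place them on NCBI Build 37 of the mouse, and deposited FPKM per gene and library. The program that computed FPKM, its handling of strand and of shared reads, are not given in the sources used here. Columns of other samples numbered 0. The members and gene lists were chosen with earlier results of these data known.

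Values were taken as log2(FPKM + 1), a scale on which changes of low genes are understated, and tested with limma 3.58.1 (R 4.3.3) over 27414 genes above 0 in at least 1 library, with Benjamini-Hochberg adjustment (q). A two-sided exact permutation test over libraries was added for the members (SciPy 1.17.1). The limma fit was also run on simulated normal values with the same spread in both groups. These held no library effects, so the run does not show how the test behaves on these libraries. All 10 members were named. Of the other lists up to 4 genes with the largest difference among those with q below 0.05 were named (where there were none, up to 2 with the highest mean), with Hsf1 and Hsp90ab1 always, 3 immediate early genes by mean and the 5 genes most correlated with the inducible mean. Gene positions came from GENCODE for Build 37, copies from BLAST 2.17.0 and promoters from RefSeq. Promoter windows were limited to the 250 bases before the start. Alternatives were another pseudocount (0.1), a filter (at least 1 FPKM in at least 4 libraries), no filter, TPM, quantile and median-ratio scaling, an intensity trend, the replicate number as a block or split as a covariate, each library left out and, chosen after seeing the data, length and GC trends removed and the sum of Hspa1a and Hspa1b. Relative depth, from values under 0.3 FPKM, differed by at most 1.23 times. Absolute depth is unknown, so no counting error was given.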

Additional observations from a re-analysis of the deposited data

Results flagged for a closer look

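In 92 groups of 4 libraries, from 46 genes, the highest or the lowest library was compared with the rest on the FPKM and the log2(FPKM + 1) scale, and chance alone sets apart about 1 in 20 groups. Hspe1 in pericytes 2, at 307.7 FPKM, stood apart from the other 3 pericyte libraries on the FPKM scale, with a gap of 0.871 of the range, and not on the log2 scale. Dnajc15 in pericytes 2, at 427.5, was the highest of its group on both scales, and Hspa9 in pericytes 2, at 79.5, the lowest of its group on both. Stip1 in SMCs 4, at 57.45, was the highest and Dusp1 in pericytes 1, at 343.1, the lowest, each on both scales.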

How the results depend on the processing

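Over the 10 members and 18 alternatives, 158 differences kept their direction and side of the threshold, 9 newly passed and 13 changed sign, and 0 calls were lost. Hspd1 passed with the filter (0.67, q = 0.0458 by limma), the split of replicates 1 and 2 against 3 and 4 as a covariate (0.67, q = 0.0160) and trends on length and GC removed (0.81, q = 0.00582), and it ranged from 0.52 to 0.83 without 1 library. Hspe1 passed with the filter (1.04, q = 0.0316), quantile normalization (0.98, q = 0.0268), TPM (0.81, q = 0.0495) and the covariate (1.04, q = 0.0198). The sign changed for Hspa1b (-0.19), Dnajb1 (-0.13), Hsp90aa1 (-0.02) and Hspa8 (-0.10) under TPM, for Hspa8 under quantile normalization (-0.31) and for Hspa5 with length and GC trends removed (0.15). Without 1 library Hspa1a ranged from -0.70 to -0.05, with -0.05 without pericytes 2, Hspa1b from -0.18 to 0.48 and Hspa5 from -0.11 to 0.13. Hsph1 then ranged from 0.16 to 0.57, Dnajb1 from 0 to 0.25, Hsp90aa1 from 0.06 to 0.39 and Hspa8 from 0.03 to 0.21. The causes were not tested.

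The number of members with q below 0.05 was 1, and it was 3 with the filter and with the covariate, 2 under TPM, quantile normalization, and length and GC trends removed, and 1 to 2 without 1 library. Over all genes the calls numbered 5977 of 27414, and 5987 of 13349 with the filter and 7723 of 27414 with the covariate. They were 5851 of 27414 under TPM, 6156 of 27414 after quantile normalization and 6979 of 20793 with length and GC trends removed. Without 1 library they were 4832 to 6536 of 26578 to 27296. The count of genes with q below 0.05 and a log2 difference over 2 was 1616 and became 2749 with a pseudocount of 0.1. Same-numbered libraries correlated at 0.0794 to 0.474 across 13612 genes (4 pairs), and 5 of 8 libraries correlated best with their own number, a hint from the data and not from the design. The highest correlation joined unlike numbers, pericytes 2 with SMCs 1 at 0.538. Libraries 1 and 2 of each group correlated negatively with libraries 3 and 4 of the other, at -0.451 to -0.102. With the replicate number as a block, Hspe1 passed (1.04, q = 0.0474), 2 members passed in place of 1, and the calls over all genes numbered 6153 in place of 5977, with no other change among the members. The block also ended the calls of Hspb2 (q = 0.0589), Bag2 (0.0805), Edem1 (0.0770) and Junb (0.123). Of 36 genes named from the other chaperone and immediate early lists, 13 kept their call or lack of one under all 18 alternatives and 0 changed sign. The read number behind a value is unknown, so what depth limits cannot be given.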

Other observations

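The ratio of Hspa1a to Hspa1b FPKM was 0.608, 0.764, 0.688 and 0.763 in pericytes 1 to 4 and 0.842, 1.02, 1.04 and 1.08 in SMCs 1 to 4. The groups did not overlap, although neither gene passed the test alone. This ratio was computed after the values of both genes had been seen, and the two-sided exact permutation test gave p = 0.0286, the smallest that 4 against 4 libraries can give. Both genes share nearly all of their coding sequence, and how fragments were divided between them was not tested.

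The ratio of Hspe1 to Hspd1 FPKM, the HSP10 and HSP60 partners, was 1.29, 3.61, 1.40 and 1.52 in pericytes and 1.74, 1.14, 1.45 and 1.24 in SMCs. Pericytes 2 lay far above the rest, and the other libraries of both groups overlapped (two-sided exact permutation p = 0.457, 4 against 4 libraries). The ratio of Hsp90aa1 to Hsp90ab1, the inducible to the constitutive cytosolic HSP90, was 0.16, 0.31, 0.13 and 0.13 in pericytes and 0.39, 0.36, 0.17 and 0.18 in SMCs, with overlapping groups (two-sided exact permutation p = 0.171). Libraries 1 and 2 lay above 3 and 4 in both groups. The SMC library had the higher ratio in 4 of 4 same-numbered pairs, but the sources used here do not give such a pairing.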
